A study of Mus musculus with 11 samples.

Results

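The beta chain of the T cell receptor is encoded by segments that lie side by side in the germline, and 53 of the 56748 genes in the count table belong to its locus. They were chosen by symbol, as every gene of GENCODE M21 whose name starts with Trbv, Trbd, Trbj or Trbc. The set holds 35 variable (V) genes, of which 13 are annotated as pseudogenes, together with 2 diversity (D), 14 joining (J) and 2 constant (C) genes. On GRCm38 they span 667 kb of chromosome 6, from 40891229 to 41558452.

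RNA came from hepatic CD4 T cells after 5 weeks of carbon tetrachloride (CCl4), a hepatotoxin that causes fibrosis and was given to both genotypes. Among 11 libraries, 6 are Atg5-deficient (label ATG5TLymph-/-), with deletion in T lymphocytes of Atg5, which is needed to form autophagosomes. The other 5 are labelled wildtype, and the design text names their genotype as ATG5fl/fl, the floxed gene. What drives the deletion, and the sex and age of the mice, are not stated. The design text describes sorting by flow cytometry, while the labels' protocol describes RNA taken from fixed, embedded sections and a kit for stranded libraries of total RNA. The labels do not say that the libraries came from separate mice, so every p-value measures only the spread between these samples.

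Each developing T cell joins 1 V, 1 D and 1 J segment of the beta locus, and the joined exon is spliced to a C gene. Most mature T cells therefore transcribe a single productive beta chain, and the share of each V segment in bulk RNA reflects which clones are present and how much receptor RNA they hold. In bulk samples, fewer cells of a clone and less RNA per cell cannot be told apart.

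The parts of the sequences that meet in the finished receptor are shown first, since the results concern which of them are used. The segments below are among those whose share was lowest in p or peaked in 1 library. Each line gives the last 60 bases of the coding sequence of a V segment, 5′ to 3′, from the GENCODE M21 transcripts (GRCm38). Capitals run from the conserved cysteine codon, where the third complementarity-determining region begins, to the end of the germline segment.
Trbv23, chr6:41216073-41216526, plus strand: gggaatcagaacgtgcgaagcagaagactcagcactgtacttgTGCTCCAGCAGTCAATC
Trbv21, chr6:41202550-41203044, plus strand: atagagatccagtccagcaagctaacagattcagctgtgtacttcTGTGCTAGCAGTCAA
Trbv26, chr6:41227505-41227993, plus strand: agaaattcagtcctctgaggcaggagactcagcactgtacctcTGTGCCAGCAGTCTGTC
Trbv31, chr6:41557691-41558452, minus strand: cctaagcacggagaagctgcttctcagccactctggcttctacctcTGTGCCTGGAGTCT
Trbv12-2, chr6:41118851-41119364, plus strand: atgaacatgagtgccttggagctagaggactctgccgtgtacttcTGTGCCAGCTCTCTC
Trbv12-1, chr6:41113550-41114067, plus strand: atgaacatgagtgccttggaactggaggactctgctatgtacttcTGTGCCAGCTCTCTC
Trbv5, chr6:41062332-41062803, plus strand: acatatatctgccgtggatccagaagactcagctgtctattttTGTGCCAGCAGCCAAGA
Trbv13-2, chr6:41121396-41121832, plus strand: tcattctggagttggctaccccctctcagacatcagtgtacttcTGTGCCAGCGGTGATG
Trbv14, chr6:41135145-41135616, plus strand: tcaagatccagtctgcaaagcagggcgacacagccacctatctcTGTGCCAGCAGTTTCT
Trbv29, chr6:41271394-41271881, plus strand: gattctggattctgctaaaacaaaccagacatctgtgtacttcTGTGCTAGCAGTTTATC

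The 2 D segments add a short run of guanines between V and J. They are shown whole.
Trbd1, chr6:41533201-41533212, plus strand: gggacagggggc
Trbd2, chr6:41542163-41542176, plus strand: gggactgggggggc

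A J segment closes the third complementarity-determining region with a phenylalanine-glycine motif, in capitals below (TTCGGNNNNGG or TTTGGNNNNGG, searched on the coding strand). Of the 14 J segments, 11 hold these letters. Trbj2-6, annotated as a pseudogene, does not, and neither do Trbj1-6 and Trbj1-7.
Trbj2-1, chr6:41542754-41542803, plus strand: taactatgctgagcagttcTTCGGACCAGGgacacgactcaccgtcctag
Trbj2-4, chr6:41543362-41543410, plus strand: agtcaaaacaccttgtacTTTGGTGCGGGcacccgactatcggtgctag
Trbj2-7, chr6:41543810-41543856, plus strand: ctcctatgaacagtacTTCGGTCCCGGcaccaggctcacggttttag
Trbj2-6, chr6:41543598-41543645, plus strand: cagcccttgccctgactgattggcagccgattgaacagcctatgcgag

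Libraries held 30699408 to 47564440 counted reads. The 8 markers of CD4 T cells summed to 2791 to 4022 CPM (read counts scaled to library size, with TMM factors) in the Atg5-deficient and 2789 to 3057 CPM in the wild-type libraries. The 2 CD8 T cell markers summed to 4.21 to 6.46 and 4.93 to 6.39 CPM, with Cd8a at 0 to 0.157 CPM in any library. The 6 hepatocyte markers, all detected, summed to 42.9 to 799.9 CPM and 31.4 to 503 CPM. The 5 B cell markers reached at most 23.97 CPM and the 6 macrophage markers at most 16.8 CPM in any library. Atg5 itself was counted at 15.2 to 22.5 CPM in Atg5-deficient and 13.4 to 21.04 CPM in wild-type libraries (log2 fold change 0.18, SE 0.14, adjusted p = 0.488 by edgeR's quasi-likelihood test). Counts over the whole gene include the exons that a floxed deletion leaves in place, so they do not check the genotype, and libraries are called by their labelled genotype throughout.

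The constant genes and the summed counts of the locus overlapped between the genotypes. Trbc1 and Trbc2 encode the constant region that pairs with the alpha chain and anchors the receptor. In the Atg5-deficient libraries, replicates 1 to 6, Trbc1 stood at 224, 224, 191, 224, 240 and 243 CPM. In the wild-type libraries, replicates 1 to 5, it stood at 233, 289, 226, 225 and 243 CPM. The groups overlapped, with Atg5-deficient replicate 3 lowest and wild-type replicate 2 highest. The log2 fold change of Trbc1 was −0.12 (SE 0.09, adjusted p = 0.462, edgeR).

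Trbc2 followed the same order at its extremes, with 199, 190, 117, 211, 205 and 188 CPM in the Atg5-deficient libraries. Its wild-type levels were 182, 218, 184, 181 and 182 CPM. The log2 fold change was −0.03 (SE 0.13, adjusted p = 0.911, edgeR), and it turned positive without Atg5-deficient replicate 3 (0.07) or wild-type replicate 2 (0.03). Replicate 3 of the Atg5-deficient group also had the lowest sum of CD4 T cell markers of its group, 2791 CPM, and the lowest summed V level, 142 CPM against 217 to 259 CPM in the other 5. The part of T cell content in that level was not tested.

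Trbc1 made up 55.1% ± 3.71 (SD, n = 6) of the constant counts in Atg5-deficient and 56.2% ± 0.943 (SD, n = 5) in wild-type libraries. The largest share was 62.0% in Atg5-deficient replicate 3, and the other 10 libraries lay between 51.5% and 57.2%. These shares are uncertain, because the 2 transcripts share a stretch of 259 identical bases, and 41.1% of the 50-base windows of Trbc1 occur in Trbc2.

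**Figure D1:**
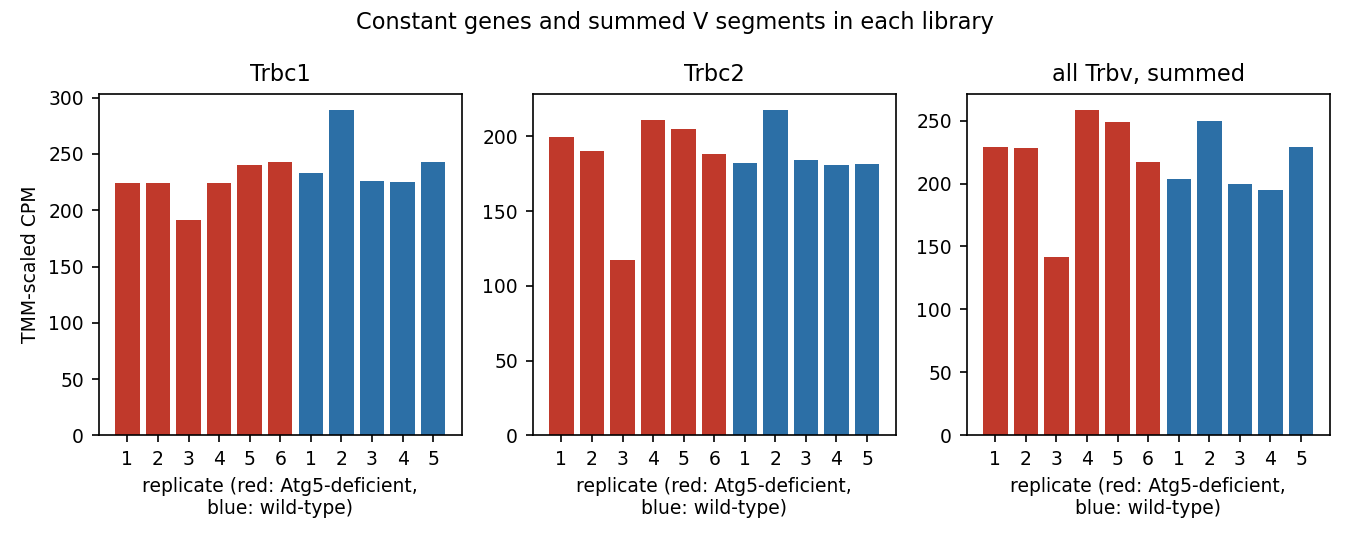
TMM-scaled CPM (vertical axes, from 0) of Trbc1, Trbc2 and all V segments summed, with 1 bar for each library (red, 6 Atg5-deficient; blue, 5 wild-type). Atg5-deficient replicate 3 is lowest in each panel, at 191, 117 and 142 CPM, and wild-type replicate 2 is highest for Trbc1 and Trbc2, at 289 and 218 CPM.

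No member of the locus passed the test of genotype on read counts. Of the 53 members, 41 had enough counts to be tested, and 0 were higher and 0 lower in Atg5-deficient libraries at an adjusted p under 0.05 (edgeR's quasi-likelihood test, adjusted over 17987 genes). Over all tested genes, 4.43% were higher and 2.41% lower. At an unadjusted p under 0.05, 0 members were higher and 2 lower, Trbv23 and Trbj2-6 (edgeR). Between 2137 and 4400 of all 17987 genes reached that p in either direction. DESeq2 called those 2 members lower, and it called 970 of 19712 genes lower in all. The median log2 fold change was −0.13 over the 41 members and -0.003 over all genes, with 14 members above 0 and 27 below. Of all tested genes, 49.7% lay above 0. By role, 11 of 23 V, 0 of 2 D, 3 of 14 J and 0 of 2 C genes lay above 0.

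Of the remaining 12 members, all V pseudogenes, 7 had no count in any library. A count of 0 among the 90227 V counts of all libraries allows a share of up to 0.00332% (3 counts, for counting error only). The other 5 had 1 to 35 counts in all, with Trbv12-3 highest. Trbv24 was the sole pseudogene that could be tested, and all V pseudogenes together took 0.222% to 0.901% of the V counts of a library.

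V segments were used unequally. Per length of exon, Trbv13-2 had the highest mean level (84.1 CPM per kb), ahead of Trbv5 (60.1), Trbv3 (57.7), Trbv15 (40.7) and Trbv13-3 (38.3). The place of Trbv5 rests on Atg5-deficient replicate 4, and without that library it had 48.3 CPM per kb, below Trbv3 at 58.3. The lowest levels among the tested V genes were those of Trbv30 (1.88 CPM per kb) and Trbv21 (0.817 CPM per kb). The 5 segments with the highest mean share held 44.2% to 57.7% of all V counts of a library, and the first 10 held 73.9% to 81.3%.

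The share of each V segment among all V counts of a library does not depend on T cell content or on scaling, so it was used to compare the genotypes. Libraries held 4507 to 10093 V counts. Of 23 V segments tested by exact permutation over the libraries (two-sided, where 0.00216 is the smallest p the design allows), 4 were lower in Atg5-deficient libraries at an unadjusted p under 0.05 and 0 were higher, which is 17.4% of those tested. The same test on the CPM of all genes gave 11.5% higher and 10.4% lower, a background on another scale than these shares. On the CPM of the 41 members it gave 0 higher (0%) and 4 lower (9.76%). On that scale the share of members lower lies near the background and that of members higher below it. Those 4 members were Trbj2-6, Trbv23, Trbd1 and Trbv21 (exact permutation p from 0.00433 to 0.0216). In CPM, Trbv26 and Trbv31 did not pass (exact permutation p = 0.0649 and 0.108). The 4 V segments lower by share are given below in order of p.

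**Figure D2:**
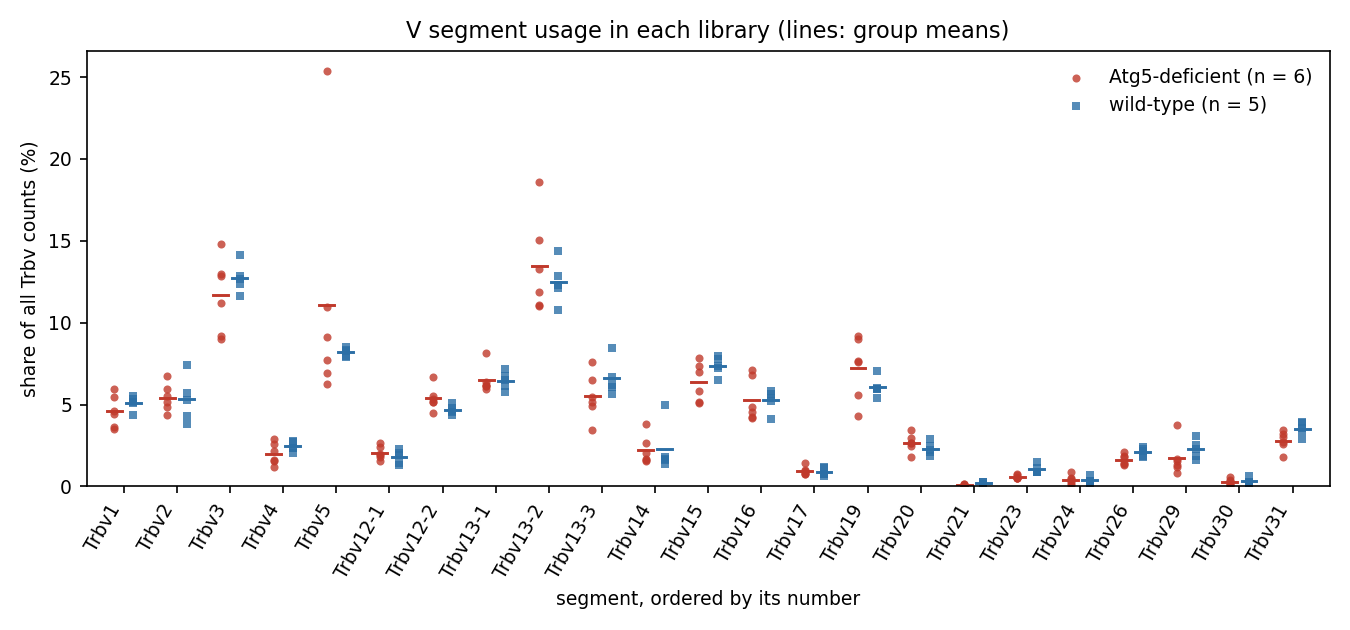
Share of all V counts (percent, vertical axis from 0) of the 23 tested V segments, with 1 point for each library (red circles, 6 Atg5-deficient; blue squares, 5 wild-type) and a line at each group mean. Most segments overlap between genotypes, and the Trbv5 point at 25.3% in an Atg5-deficient library lies far above the rest.

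Trbv23, a rarely used segment, was lower in all 6 Atg5-deficient libraries than in any wild-type library. Its shares were 0.773%, 0.541%, 0.688%, 0.491%, 0.495% and 0.543% of V counts in the Atg5-deficient libraries, from 31 to 64 counts each. In the wild-type libraries they were 1.12%, 0.877%, 1.49%, 0.892% and 0.876%, from 61 to 132 counts. The groups did not overlap, although the closest libraries were within counting error of each other (0.606% to 0.986% for Atg5-deficient replicate 1 and 0.704% to 1.09% for wild-type replicate 5, 95% Wilson intervals). Means were 0.589% ± 0.115 (SD, n = 6) and 1.05% ± 0.267 (SD, n = 5), with an exact permutation p of 0.00216. Among all genes, 2.08% were lower and 2.78% higher with no overlap in CPM, and 1 of 23 V segments (Trbv23, by share) did not overlap. In CPM, the scale of that background, Trbv23 overlapped, at 0.974 to 1.77 CPM in Atg5-deficient and 1.74 to 2.98 CPM in wild-type libraries.

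The lower Trbv23 share held in every setting tried. The 11 fits that left out 1 library (exact permutation p from 0.00476 to 0.00952) add nothing to this. Groups that do not overlap stay apart when a library is removed. On the CPM scale the log2 change was −0.81 (SE 0.25, adjusted p = 0.0689, edgeR), short of the threshold.

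Trbv21 was the rarest V gene tested, and its difference rests on 0 to 25 counts a library. Its shares were 0.0967%, 0.0773%, 0%, 0.123%, 0.0991% and 0.145% in the Atg5-deficient libraries and 0.154%, 0.168%, 0.283%, 0.132% and 0.266% in the wild-type libraries. The groups overlapped by 1 library, wild-type replicate 4. In Atg5-deficient replicate 3 there were 0 of 4507 V counts, which allows a share of up to 0.0666%. Means were 0.0901% ± 0.0499 (SD, n = 6) and 0.200% ± 0.0691 (SD, n = 5; exact permutation p = 0.00649), and the log2 fold change on CPM was −1.01 (SE 0.61, adjusted p = 0.347, edgeR).

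Trbv26 had a share of 1.64% ± 0.327 (SD, n = 6) in Atg5-deficient and 2.10% ± 0.276 (SD, n = 5) in wild-type libraries (exact permutation p = 0.0368). The Atg5-deficient libraries ran from 1.29% over a median of 1.61% to 2.10%, and the wild-type libraries had 1.77%, 1.87%, 2.30%, 2.41% and 2.17%. The groups overlapped between 1.77% and 2.10%, and p stayed under 0.05 in 5 of the 11 fits that left out a library.

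Trbv31 lies downstream of the constant genes in the opposite orientation to the other V segments. Its share was 2.80% ± 0.566 (SD, n = 6) in Atg5-deficient and 3.52% ± 0.422 (SD, n = 5) in wild-type libraries (exact permutation p = 0.0390). Single wild-type libraries had 3.36%, 3.95%, 3.86%, 3.54% and 2.89%, and Atg5-deficient libraries had 2.71%, 2.60%, 3.20%, 1.82%, 3.42% and 3.04%, so the groups overlapped. The lowest share was that of Atg5-deficient replicate 4, and without it the exact permutation p was 0.0714. It stayed under 0.05 in 4 of the 11 fits that left out a library.

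Trbv12-2 had the smallest p among segments with a higher mean, 5.39% ± 0.725 (SD, n = 6) against 4.68% ± 0.277 (SD, n = 5; exact permutation p = 0.0519). Its p was under 0.05 in 6 of 17 other settings and ran from 0.00433 as a centred log-ratio to 0.214 in the 8 libraries whose title numbers run without a gap (exact permutation). Trbv12-1 shares 88.2% of its coding bases, and 1.19% of the 50-base windows of Trbv12-2 occur in another V gene, against 0% of those of Trbv12-1. Summed with the pseudogene Trbv12-3, the Trbv12 subfamily took 8.69%, 7.19%, 6.97%, 6.75%, 8.18% and 7.13% of V counts in the Atg5-deficient libraries. It took 6.71%, 6.60%, 6.73%, 6.71% and 5.87% in the wild-type libraries. Every Atg5-deficient value lay above every wild-type value, the closest pair being 6.75% and 6.73% (7.48% ± 0.769, SD, n = 6, against 6.52% ± 0.371, SD, n = 5; exact permutation p = 0.0130). That gap is well within counting error, since Trbv12-2 alone had a Wilson interval of 4.76% to 5.64% in Atg5-deficient replicate 4, the library at 6.75%. Among all genes, 2.78% were higher with no overlap in CPM.

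**Figure D3:**
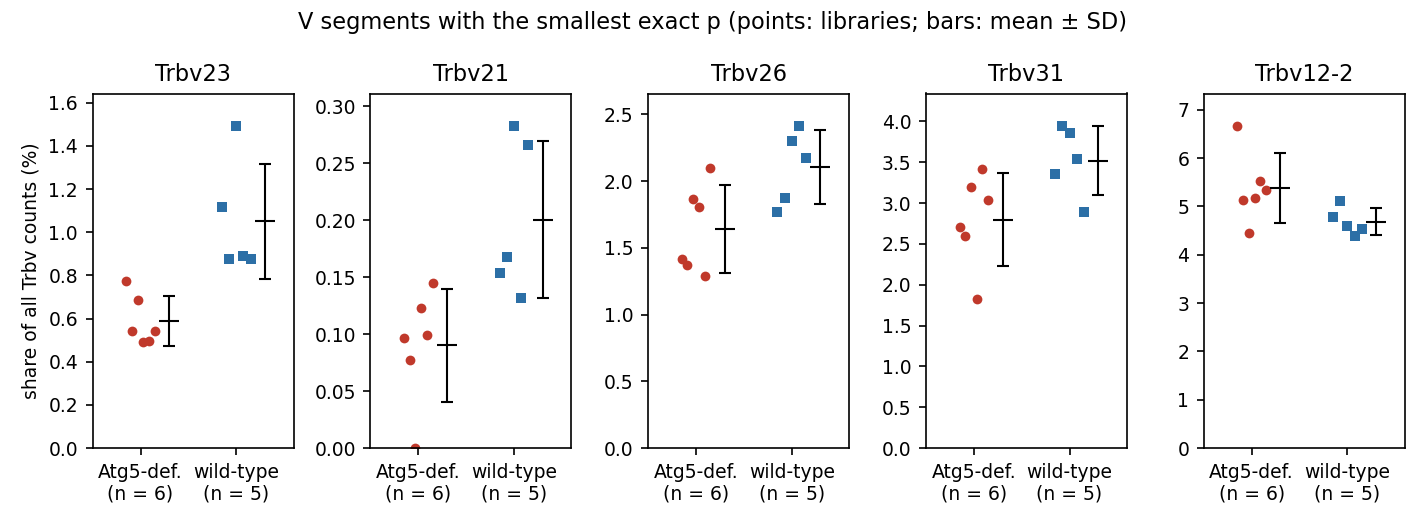
Share of all V counts (percent, vertical axes from 0) of the 5 V segments with the smallest exact p, with 1 point for each library and the mean ± SD beside it (red circles, 6 Atg5-deficient; blue squares, 5 wild-type). Trbv23 alone shows no overlap between the groups, at 0.491% to 0.773% against 0.876% to 1.49%.

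The frequently used V segments overlapped between the genotypes in each case. Trbv13-2 took 13.5% ± 2.95 (SD, n = 6) and 12.5% ± 1.31 (SD, n = 5) of V counts (exact permutation p = 0.563). Trbv3 took 13.0%, 12.8%, 14.8%, 9.21%, 11.2% and 8.98% in the Atg5-deficient libraries and 11.7%, 12.9%, 12.3%, 12.7% and 14.2% in the wild-type libraries (exact permutation p = 0.361). The 3 lowest Trbv3 shares, all in Atg5-deficient libraries, lay below every wild-type value, and the highest was also Atg5-deficient.

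Trbv15 averaged 6.39% ± 1.17 (SD, n = 6) against 7.36% ± 0.569 (SD, n = 5; exact permutation p = 0.132) and Trbv19 averaged 7.22% ± 1.93 against 6.08% ± 0.610 (exact permutation p = 0.227). Trbv19 ran from 4.29% in Atg5-deficient replicate 4 to 9.16% in Atg5-deficient replicate 3, on both sides of the wild-type range of 5.42% to 7.08%. Without replicate 4 its share was higher in Atg5-deficient libraries with an exact permutation p of 0.0397. Trbv4 and Trbv13-3 had lower means (2.001% against 2.45% and 5.52% against 6.61%) and Trbv20 a higher mean (2.66% against 2.31%) in Atg5-deficient libraries, with exact permutation p from 0.188 to 0.268. Trbv2 (5.42% against 5.32%), Trbv16 (5.28% against 5.26%) and Trbv1 (4.62% against 5.11%) had exact permutation p from 0.323 to 0.974, and Trbv12-1 (2.06% against 1.80%) had 0.312.

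The 5 V genes known in the receptors of invariant NKT cells (Trbv1, Trbv13-1, Trbv13-2, Trbv13-3 and Trbv29) gave 0 calls in either direction by edgeR, with a smallest adjusted p of 0.270. Their median log2 fold change was −0.12. The 3 Trbv13 genes together took 25.5% ± 3.26 (SD, n = 6) and 25.5% ± 2.01 (SD, n = 5) of V counts (exact permutation p = 0.957). Their coding sequences are 85.3% to 90.6% identical, and at most 0.344% of their 50-base windows occur in another V gene. Among 7 other genes of invariant T cells, 6 were tested and 0 called. Their median log2 fold change was −0.86, with 4 below 0, and at an unadjusted p under 0.05 there were 3 lower and 1 higher (edgeR). Between 2137 and 4400 of all 17987 genes reached that p in either direction. The alpha chain segments Trav11, Traj18 and Traj33 had log2 fold changes of −1.43, −0.31 and 0.25 (SE 0.60, 0.26 and 0.37; adjusted p = 0.167, 0.519 and 0.739, edgeR). Klrb1c, a receptor of NK and invariant NKT cells, had a log2 fold change of −1.49 (SE 0.47, adjusted p = 0.0724, edgeR). Zbtb16, a transcription factor of these cells, had a log2 fold change of −1.40 (SE 0.45, adjusted p = 0.0758, edgeR). Trav1, the alpha segment of MAIT cells, had a log2 fold change of 1.64 (SE 0.53, adjusted p = 0.0775, edgeR), with 5.15 CPM in Atg5-deficient replicate 5 and 0.362 to 1.21 CPM in the other libraries.

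Single V segments peaked in single libraries, most of all Trbv5. It took 25.3% of V counts (2475 of 9768; Wilson interval 24.5% to 26.2%) in Atg5-deficient replicate 4. In the other Atg5-deficient libraries, replicates 1, 2, 3, 5 and 6, it took 6.27%, 9.12%, 6.94%, 10.98% and 7.74%. The wild-type libraries stood close together at 8.53%, 8.25%, 7.93%, 7.97% and 8.32%. No other library came near replicate 4, which was 3.12 times the median of the rest.

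The peak was one of level and not only of share, since Trbv5 stood at 65.5 CPM there and at 9.83 to 27.3 CPM in the other 10 libraries. Group means were 11.1% ± 7.19 (SD, n = 6) and 8.20% ± 0.248 (SD, n = 5; exact permutation p = 0.613). Without replicate 4, the difference in share fell from 2.86 to 0.00818 percentage points and the log2 fold change from 0.54 to 0.01. Trbv5 lies inside the long noncoding gene 5830405F06Rik on the same strand, and how reads lying in both were assigned is not stated. That gene had 2532 counts in replicate 4 and 366 to 1280 in the others, which was 93.4% to 97.7% of the summed counts of Trbv4 and Trbv5 in each library.

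Other segments of the receptor stood out in the same library. The J segment Trbj2-1 took 23.0% of J counts (Wilson interval 21.6% to 24.4%), against at most 18.4% elsewhere. Of 128 alpha chain V segments, Trav7n-6 took 4.33% of Trav counts, against a median of 0.312% in the others and 0.483% at most. Traj23 took 7.15% of Traj counts, against at most 6.01% elsewhere. Bulk counts do not say whether these segments come from the same cells.

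With Trbv5 left out of the sum, 7 of the 22 other tested V segments of replicate 4 lay outside the range of the other libraries, and each other library had 2 to 7 such segments. Trbv15 was above the others at 10.5% (8.65% at most elsewhere), as were Trbv20 and Trbv24. Trbv31 was below them at 2.44% (2.86% at least elsewhere), as were Trbv4, Trbv13-3 and Trbv19. Of these 22 segments, 17 had a share below the median of the other libraries when Trbv5 was counted and 10 when it was not. The effective number of V segments (the exponential of the Shannon entropy of the shares) was 13.6 in that library with Trbv5, the lowest of all, and 15.4 without it, where the other libraries had 14.4 to 16.4. Of the 5 NK cell markers, Eomes stood at 83.0 CPM there and at 4.25 to 24.8 CPM elsewhere, while Ncr1 and Klra8 were at 0. Klrb1c and Klre1 stood at 0.900 and 0.159 CPM there, within the range of the other Atg5-deficient libraries. The wild-type libraries had 2.85 to 8.70 CPM of Klrb1c and 0.513 to 1.46 CPM of Klre1. The list summed to 84.1 CPM there, 8.64 to 29.7 CPM in the other Atg5-deficient and 11.9 to 16.8 CPM in the wild-type libraries. Its part in the Trbv5 peak was not tested.

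Smaller peaks appeared in other libraries of both genotypes. Trbv13-2 took 18.6% of V counts in Atg5-deficient replicate 1 and 10.8% to 15.1% in the other 10 libraries. In the same library Trbv14 took 3.79%, Trbj2-4 13.8% of J counts and Trav7d-3 4.49% of Trav counts, the last 10.1 times the median of the others. Trbv29 took 3.77% in Atg5-deficient replicate 3 and 0.852% to 3.08% in the others. In wild-type replicate 5, Trbv14 took 4.97% (448 counts), against 1.38% to 3.79% in the others.

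**Figure D4:**
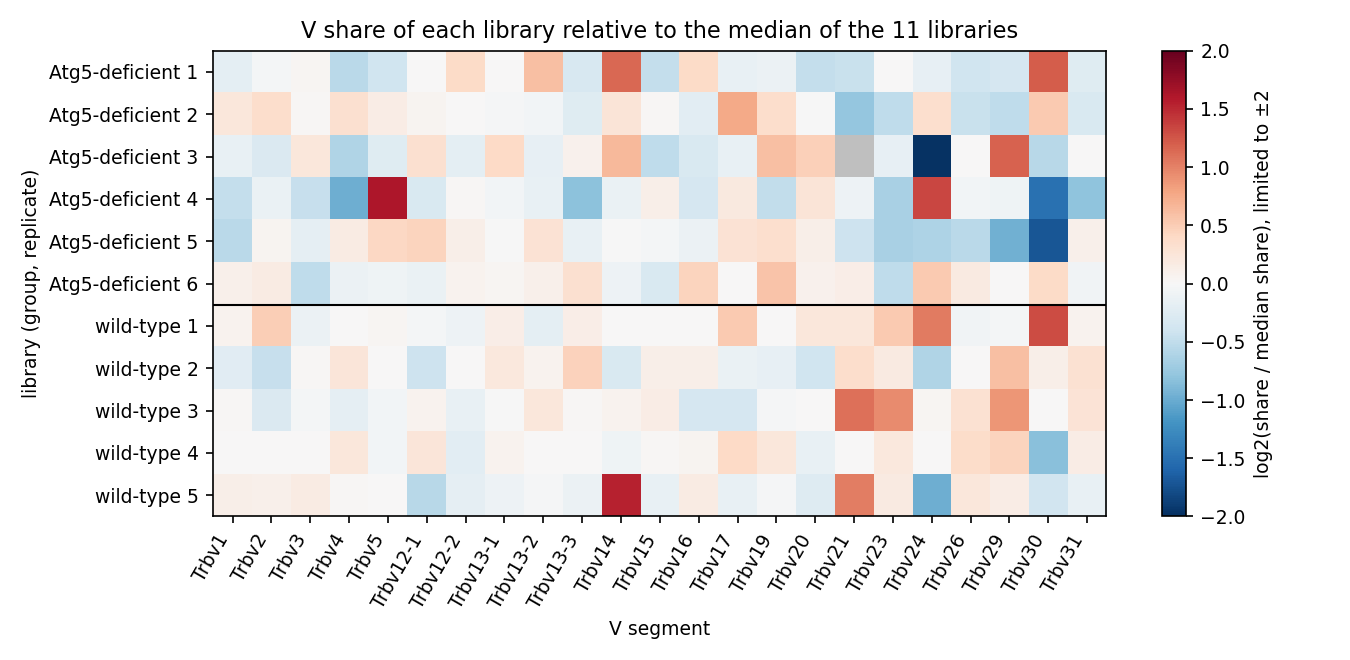
Share of each of the 23 tested V segments (columns) in each library (rows), as log2 of its ratio to the median of the 11 libraries, limited to ±2; red is above and blue below the median, and grey marks the share of 0 for Trbv21. Trbv5 in Atg5-deficient replicate 4 (25.3%) and Trbv14 in wild-type replicate 5 (4.97%) stand out in red. Trbv23 is blue or pale in the Atg5-deficient rows, red in wild-type replicates 1 and 3 and pale in wild-type replicates 2, 4 and 5.

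V shares varied more between the Atg5-deficient libraries. The standard deviation was larger among the Atg5-deficient libraries for 18 of 23 tested V segments, and the median coefficient of variation was 21.9% against 13.1%. Without replicate 4 the standard deviation was larger for 16 of 23, and with Trbv5 left out for 16 of 22. For J shares it was larger for 9 of 14, with a median coefficient of variation of 22.7% against 18.5%. The constant genes went both ways, with standard deviations of 18.3 against 26.7 CPM for Trbc1 and 34.4 against 15.9 CPM for Trbc2. Spread over all genes was not compared. The effective number of V segments was 15.6 ± 1.09 (SD, n = 6) in Atg5-deficient and 16.7 ± 0.437 (SD, n = 5) in wild-type libraries, and 15.99 ± 0.528 without replicate 4. The share of V counts that would have to move to give the mean profile of the other libraries ran from 6.80% to 19.4% and from 4.87% to 8.08%. These scores over the locus are descriptions with no test, the ranges overlap, and the lowest depth, 4507 V counts, was in an Atg5-deficient library.

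The D and J segments showed the same picture of small differences. Trbd1 stood at 2.10 to 3.35 CPM in Atg5-deficient and 3.62 to 4.10 CPM in wild-type libraries, with no overlap. The edgeR estimate of its change was −0.41 on the log2 scale (SE 0.20, adjusted p = 0.225, edgeR). It was 1 of 41 members (2.44%) without overlap in CPM, near the background of all genes given above. Trbd2 had a log2 fold change of −0.21 (SE 0.23, adjusted p = 0.620, edgeR). At 12 and 14 bases these genes are shorter than a read, so their counts come from reads that also cover other sequence.

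J segments lie in 2 clusters, each upstream of its own constant gene. Trbj2-7 had the highest level per length (353 CPM per kb), followed by Trbj2-1 (263) and Trbj2-5 (217), and each of these belongs to the second cluster. The first cluster held 18.3% ± 3.22 (SD, n = 6) of J counts in Atg5-deficient and 20.5% ± 3.397 (SD, n = 5) in wild-type libraries. Its highest segment per length, Trbj1-4, reached 60.9 CPM per kb.

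Of 14 J segments tested by share, 1 was higher and 0 lower in Atg5-deficient libraries at an unadjusted exact permutation p under 0.05 (7.14% of those tested). The same test on the CPM of all genes gave 11.5% higher and 10.4% lower. By share, the J segments did not pass more often than that background, which is on another scale. In CPM the J segment that passed was another, Trbj2-6, which was lower (exact permutation p = 0.00433). Trbj2-4 did not pass in CPM (exact permutation p = 0.422). Trbj2-4 took 13.8%, 11.3%, 9.89%, 8.08%, 9.48% and 9.76% of J counts in the Atg5-deficient libraries. In the wild-type libraries it took 8.39%, 8.69%, 8.24%, 8.99% and 8.65%. Atg5-deficient replicate 4 lay below all wild-type libraries and the other 5 above them. Means were 10.4% ± 1.96 (SD, n = 6) and 8.59% ± 0.291 (SD, n = 5; exact permutation p = 0.0476), and p was 0.0635 without replicate 1. It stayed under 0.05 in 2 of the 11 fits that left out a library.

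Trbj2-6, the pseudogene whose sequence lacks the motif, was still counted at 5.22% to 10.2% of J counts. Its share was 6.26% ± 1.33 (SD, n = 6) in Atg5-deficient and 7.96% ± 1.64 (SD, n = 5) in wild-type libraries (exact permutation p = 0.0866). On the CPM scale it stood at 4.10 to 5.74 CPM with a median of 5.01 in the Atg5-deficient libraries and at 10.3, 5.67, 5.99, 7.78 and 6.46 CPM in the wild-type libraries. The groups overlapped narrowly, with a log2 change of −0.53 (SE 0.18, adjusted p = 0.0896, edgeR). Trbj2-2 took 7.86% ± 0.944 (SD, n = 6) and 6.56% ± 1.05 (SD, n = 5; exact permutation p = 0.0649). The leading segment Trbj2-7 took 19.4% ± 2.57 and 19.5% ± 1.70 (exact permutation p = 0.926). In the first cluster, Trbj1-7, Trbj1-6, Trbj1-2 and Trbj1-4 each had a lower mean in Atg5-deficient libraries, with exact permutation p from 0.165 to 0.426.

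**Figure D5:**
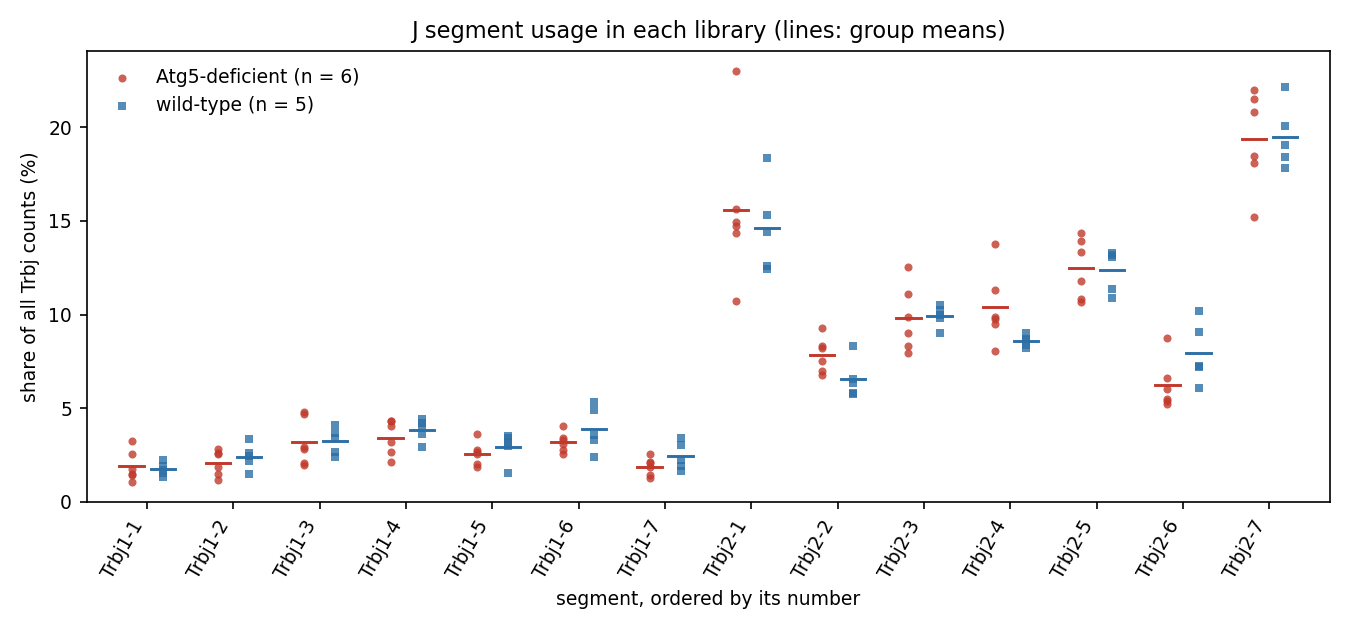
Share of all J counts (percent, vertical axis from 0) of the 14 J segments, with 1 point for each library (red circles, 6 Atg5-deficient; blue squares, 5 wild-type) and a line at each group mean. The second cluster holds the larger shares, and Trbj2-1 reaches 23.0% in Atg5-deficient replicate 4.

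The other genes of receptor assembly were taken from a list of 13 genes, of which 10 were tested, 0 were higher and 1 was lower. Over all tested genes, 4.43% were higher and 2.41% lower at the same threshold. Tcrg-C4, a constant gene of the gamma chain, fell by 1.51 on the log2 scale (SE 0.38, adjusted p = 0.0297, edgeR), from 1.70 to 2.72 CPM in wild-type to 0.367 to 1.38 CPM in Atg5-deficient libraries. The 6 gamma-delta T cell markers, all detected, include Tcrg-C4 and 3 other genes of the list. They summed to 8.43 to 15.2 CPM in wild-type and 7.28 to 11.9 CPM in Atg5-deficient libraries. Of those 3 genes, Tcrg-C1 and Tcrg-C2 had log2 fold changes of −1.31 and −0.81 (adjusted p = 0.0977 and 0.216, edgeR). Trdc, the constant gene of the delta chain, went the other way, at 0.45 (SE 0.20, adjusted p = 0.205, edgeR). The part of these markers in the lower Tcrg-C4 was not tested. The list's median log2 fold change was 0.01. Trac, the constant gene of the alpha chain that pairs with the beta chain, had a log2 fold change of 0.24 (SE 0.11, adjusted p = 0.194, edgeR). Rag2, part of the recombinase, and Ptcra, the surrogate alpha chain of thymocytes, had 0 counts in all libraries, and Rag1 had 25. Of 8 non-receptor genes in or beside the locus, Ephb6, a receptor kinase gene, was the sole one tested (log2 fold change −0.10, SE 0.17, adjusted p = 0.771, edgeR), and the trypsinogen genes among them had at most 29 counts each over all libraries.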

How the data were processed

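Reads of 11 libraries were aligned with STAR to GRCm38 and assigned to genes with featureCounts, per the submitters' processing notes; versions, strand setting and the handling of multimapping reads are not stated there. The authors deposited raw counts per Ensembl gene, used here as deposited, and 0 columns belonged to other samples. Of the gene IDs, 91.9% matched GENCODE M21, which gave symbols, coordinates and sequences. Even values were more frequent than odd ones (62.2% of values from 1 to 10), so read mates may have been counted separately. Wilson intervals and limits for a count of 0 cover counting error only and would then be too narrow.

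Genotype was tested with edgeR 4.0.16 (quasi-likelihood, robust; filterByExpr with minimum count 10 and minimum total 15; TMM; Benjamini-Hochberg adjustment over 17987 genes, threshold 0.05; common biological coefficient of variation 0.341) in R 4.3.3, with DESeq2 1.42.0 as an alternative. CPM values are TMM-scaled. Shares of V or J counts were compared by exact permutation over all 462 assignments of the libraries, two-sided and unadjusted, for segments with at least 110 counts in all (Python 3.11.15, numpy 2.4.6). Both procedures were tested on simulated data. Groups come from the genotype labels, and replicates were numbered in accession order, so numbers pair nothing. The members, lists and tests were chosen with earlier results of these data known. Named are Trbc1, Trbc2, called members, the 12 V genes with the highest share, up to 10 V and 6 J segments with the smallest p, segments that stood out in a library at a share of at least 1%, invariant NKT chains and the leading J segment of each cluster. Trbd1, Trbd2, Trbv24, Trbv30, Trbj2-1 and Trbj2-5, alpha chain segments, invariant T cell genes, Trdc, Tcrg-C1, Tcrg-C2, Dntt, Eomes, Ncr1, Klra8 and Klre1 were named after their values were seen. Alternatives were other scalings, filters and library sizes, DESeq2, other denominators, a log-ratio scale, summed subfamilies, the 8 libraries whose title numbers run without a gap, and each library left out in turn.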

Additional observations from a re-analysis of the deposited data

Results flagged for a closer look

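Values of a group of 5 or 6 libraries were checked for a lowest or highest library that lay far from the rest of its group, by Dixon's ratio at the 95% level. Of 62 groups of values, 8 had such a library. Chance gives about 1 in 20 groups, but some of these segments were named because they stood out in a library, so their number is not a test. Trbv5 was at 25.3% of V counts in Atg5-deficient replicate 4, and the next library of the group was at 10.98%. Trbv13-1 was at 8.12% in Atg5-deficient replicate 3, where the next was at 6.36%, and Trbv29 in the same library was at 3.77%, where the next was at 1.67%. Trbv14 was at 4.97% in wild-type replicate 5, where the next was at 1.80%. The constant genes set apart the same 2 libraries: Atg5-deficient replicate 3 was lowest for Trbc1 (191 CPM) and Trbc2 (117 CPM), and wild-type replicate 2 was highest for both (289 and 218 CPM). The causes were not tested.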

How the results depend on the processing

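The lower share of Trbv23 kept its direction and an exact permutation p under 0.05 in all 18 settings tried, and that of Trbv21 in all 17. For Trbv23, the settings that only removed libraries could not make the groups overlap, so they are no further evidence. Members called lower on counts numbered 2 by DESeq2 and 1 under a strict count filter, against 0 otherwise. Over all genes, 970 of 19712 were lower by DESeq2 and 537 of 13311 under the strict filter. V segments higher by share numbered 1 with pseudogenes left out, as a share of all beta-locus counts, as a centred log-ratio, or with Trbv5 left out (a setting chosen after seeing the data), each time Trbv12-2. They numbered 1 with subfamilies summed (Trbv12) and 0 to 1 with a library left out. V segments lower by share numbered 2 as a share of all beta-locus counts or as a centred log-ratio, and 2 to 5 with a library left out. They numbered 2 without Atg5-deficient replicate 1 or 2 or wild-type replicate 3 or 4. J segments higher numbered 0 within the J cluster or among the 8 consecutively numbered libraries, and 0 to 1 with a library left out, as did J segments lower. The cause of these changes was not tested.

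No difference that changed sign passed its test as reported or in the setting that turned it. With a library left out, log2 fold changes ran from −0.033 to 0.12 for Trbv13-1, −0.31 to 0.50 for Trbv14, −0.062 to 0.17 for Trbv16 and −0.072 to 0.069 for Trbc2. Differences in share ran from −0.271 to 0.631 points for Trbv2, −0.306 to 0.199 for Trbv13-1, −0.0357 to 1.48 for Trbv13-2, −0.381 to 0.602 for Trbv14, −0.348 to 0.244 for Trbv16, −0.0304 to 0.137 for Trbv17 and −0.660 to 0.691 for Trbj2-7. Upper-quartile scaling gave −0.062 for Trbv13-1 and −0.031 for Trbv16, and the strict filter gave −0.00843 for Trbv13-1 (log2). The 8 consecutive libraries gave −0.014 for Trbv13-1, 0.58 for Trbv14 and −0.00106 for Trbv16 (log2), and shares of −0.0851, 0.756 and −0.165 points for these, 0.242 for Trbj1-6 and 0.0674 for Trbj1-7. The centred log-ratio gave 0.00929 for Trbv3 and 0.21 for Trbv14, and the share of all beta-locus counts 0.00425 points for Trbv14. No paired analysis was possible because replicate numbers follow accession order and pair nothing.

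Depth limits rare segments: 3 counts are 0.0297% to 0.0666% of the V counts of a library. Trbc1 and Trbc2 are uncertain where reads match both.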
